A study of Homo sapiens and Mus musculus with 9 samples.

Results

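The subject is the mRNA of ATF4, followed as ribosome footprints in HEK293 cells and represented by 3 transcript IDs. They were picked by ID because no peak in the deposited lists carries the symbol ATF4, and no table used here pairs the IDs with a symbol. ENST00000674920 has rows in the density tables of all 4 Ribo-seq libraries, 1 of the 16984 transcripts listed there. ENST00000675582 and ENST00000679776 have no density rows, and they supply 3 and 7 of the 41748 open reading frames in each of the authors' fold tables. The choice was made with the footprint values of these libraries already known, so the size and rank of the ATF4 values are a description.

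The 4 libraries come from wild-type HEK293, a human embryonic kidney line, with 1 library per group. Those named trans1 and trans2 were starved and transfected with a trans-RNA against ATF4, which the series' design text places at the main open reading frame. The starvation library was starved without that RNA, and the control library has the treatment label control. The treatment label of trans1 and trans2 is identical, and it does not say whether 1 RNA was used in both or a different RNA in each. The sources used here give neither what was withheld for starvation, nor for how long, nor the sequence of the trans-RNA. No starvation library received an unrelated RNA, so a transfection effect and an effect of the trans-RNA cannot be told apart. The remaining 5 of the 9 samples, small RNA from this line and mouse liver RNA, were not used here.

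ATF4 is a transcription factor at the centre of the integrated stress response, the program that cells start when the initiation factor eIF2 is phosphorylated. Its mRNA is the textbook case of control by upstream open reading frames. A short frame near the 5′ end is read first and lets ribosomes resume scanning, and a longer frame downstream of it overlaps the start of the ATF4 coding region in a different phase. Ribosomes that start on the overlapping frame miss the ATF4 start codon, and under stress more of them scan past it and begin at ATF4 itself. In the authors' tables, by the usual meaning of their labels, a frame of this kind is a uoORF, an upstream frame that ends before the coding region a uORF, a frame inside the coding region in another phase an iORF, and a shortened version of the coding frame a Trunc.

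The density values of a transcript are whole multiples of the value of 1 read, so its reads could be counted. Recovered reads totalled 6055844 in trans1, 7427924 in trans2, 9261427 in starvation and 10520771 in control, over 10281 transcripts. Levels are given as CPM, reads per 1000000 of these totals. Ratios between libraries carry an exact 95% interval in brackets, which covers counting error alone. With 1 library per group no difference could be tested against the spread between cultures, and no p-value is given. The trans1 and trans2 ratios also share the starvation library as denominator. Positions are counted from the first base of the ATF4 start codon. Only the 30 positions before each codon were searched for a peak in the average over all transcripts. The highest was -12 before the start codon and -18 in the stop-aligned tables in each library. Positions may therefore be the 5′ ends of footprints, which this search cannot settle. The sources used here do not state an offset. Stretches are therefore named by position alone. If positions are 5′ ends, reads from -12 on would come from ribosomes on or past the start codon. Among 6 genes listed as marks of this line, 4 were named in the peak lists and 2 could be counted. The pluripotency factor LIN28B had 34.0, 44.3, 42.0 and 56.6 CPM in trans1, trans2, starvation and control, and the neurofilament gene NEFL had 76.3, 70.0 and 76.7 CPM in trans1, trans2 and starvation, the last at -0.26 in log2 against control. Of 6 marks of other cells, 1 was named and none could be counted.

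ATF4 was among the most heavily read of the recovered transcripts in both trans-RNA libraries. ENST00000674920 held 48548 reads in trans1, 34540 in trans2, 4570 in starvation and 3073 in control. That is 8017, 4650, 493 and 292 CPM in the same order of libraries. By CPM the transcript stood 5th of 10133 transcripts with recovered reads in trans1 and 11th of 10259 in trans2. It stood 313th of 10218 in starvation and 594th of 10266 in control. Listed transcripts whose reads could not be recovered were not ranked. The trans1 level was 16.2-fold (15.8 to 16.8) that of starvation and the trans2 level 9.42-fold (9.14 to 9.72). Starvation held 1.69-fold (1.61 to 1.77) the control level.

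These whole-transcript ratios were set against all transcripts with recovered reads and at least 1 CPM, on the scale of log2(CPM + 1). In trans1 against starvation, 1.25% of 10092 transcripts were at least 2-fold higher and 1.13% at least 2-fold lower. ENST00000674920 was the highest of them at 4.02, followed by 2.74. In trans2 against starvation, 1.86% of 10190 were at least 2-fold higher and 0.196% lower, and ATF4 at 3.23 stood at rank 3. In starvation against control, 2.53% of 10192 were at least 2-fold higher and 1.87% lower, and ATF4 at 0.75 stood at rank 603, under the 2-fold mark. There is no RNA-seq of these HEK293 cultures among the files used here, so more mRNA and more ribosomes per mRNA cannot be told apart. Reads of a transfected RNA that shares sequence with ATF4 and ribosome footprints also cannot be told apart in these tables.

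Of the difference in CPM between trans1 and starvation, 75.4% lay at positions -30 to 106, and 71.4% of that between trans2 and starvation. A further 24.9% and 30.1% lay outside the tables' windows and cannot be placed. These shares rest on the transcript totals, and whether those include reads outside the coding region is not settled. Positions -30 to -1 held 14295 reads in trans1, 6122 in trans2, 435 in starvation and 362 in control. Those counts are 2361, 824, 47.0 and 34.4 CPM. The trans1 level was 50.3-fold (45.7 to 55.4) that of starvation and the trans2 level 17.5-fold (15.9 to 19.4), while starvation was at 1.37-fold (1.18 to 1.57) of control. Both trans-RNA libraries thus stood far above the other pair, and trans1 above trans2.

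At positions 0 to 79, the libraries held 19982, 16027, 734 and 756 reads in the order trans1, trans2, starvation and control. In CPM that is 3300, 2158, 79.3 and 71.9. The ratios to starvation were 41.6 (38.7 to 44.9) for trans1 and 27.2 (25.3 to 29.4) for trans2, and starvation over control was 1.10 (0.995 to 1.22). The interval for starvation over control included 1 in the stretch where the trans-RNA libraries gained most reads.

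The ratios fell past position 106, taken here as an edge. From 107 to 125, trans2, starvation and control held no reads, and trans1 had reads only at 108 and 115. Where within this gap the ratios fell cannot be placed. From 80 to 106 there were 864 reads in trans1, 855 in trans2, 34 in starvation and 46 in control, with ratios to starvation of 38.9 (27.6 to 56.5) and 31.4 (22.3 to 45.6). From 107 to 299 there were 155 reads in trans1, 271 in trans2, 310 in starvation and 167 in control, or 25.6, 36.5, 33.5 and 15.9 CPM. There the ratios to starvation were 0.765 (0.626 to 0.930) for trans1 and 1.09 (0.923 to 1.29) for trans2. The edge was placed after the profiles had been seen, at the last position with reads in both trans-RNA libraries before the first 15 or more positions without trans2 reads. In the 30 nt from 120 to 149, trans1 held 6 reads and trans2 35, against 17 in starvation and 25 in control. The plot of region ratios shows the drop between neighbouring stretches.

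**Figure D1:**
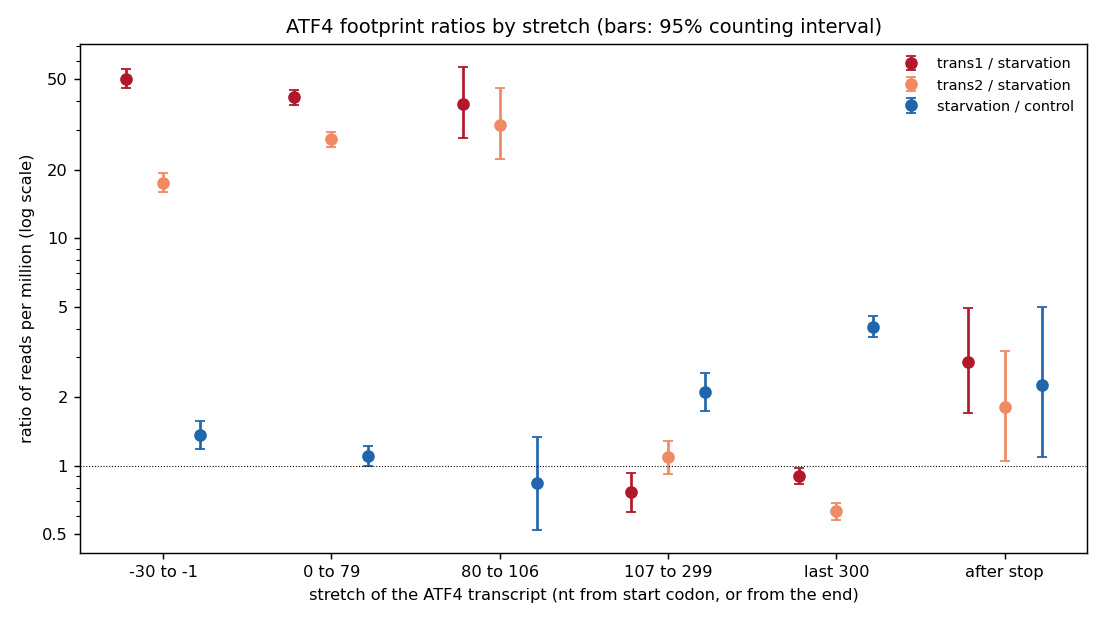
Ratios of ATF4 CPM (log axis) for trans1 over starvation, trans2 over starvation and starvation over control, by stretch of ENST00000674920, with exact 95% intervals of counting error as bars. The trans1 and trans2 ratios lie between 17.5 and 50.3 up to position 106 and between 0.630 and 1.09 from 107 to 299 and in the last 300 nt, where starvation over control is 2.11 and 4.09.

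The end of the coding region showed another order of libraries. Its last 300 nt held 977 reads in trans1, 841 in trans2, 1665 in starvation and 463 in control, or 161, 113, 180 and 44.0 CPM. Starvation was at 4.09-fold (3.68 to 4.54) of control. The trans1 level was 0.897-fold (0.828 to 0.972) and the trans2 level 0.630-fold (0.579 to 0.685) that of starvation. All 3 starved libraries were thus above control here, and the plain starvation library was the highest of them. After the stop-aligned zero, positions 0 to 30 held 45, 35, 24 and 12 reads in trans1, trans2, starvation and control, with ratios of 2.87 (1.71 to 4.92) for trans1 and 1.82 (1.05 to 3.20) for trans2 over starvation.

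As a share of all ATF4 reads, positions -30 to 99 took 72.0% in trans1 and 66.2% in trans2, against 26.1% in starvation and 37.4% in control. The last 300 nt took 2.01% in trans1 and 2.43% in trans2, against 36.4% in starvation and 15.1% in control. A further 25.2%, 30.1%, 29.9% and 41.2% lay outside the tables' windows in trans1, trans2, starvation and control. Those reads were 13.7-fold (12.9 to 14.5) higher in trans1 and 9.48-fold (8.96 to 10.0) higher in trans2 than in starvation, and whether they lie further upstream or in the middle of the coding region was not tested. The shares and the reads outside the windows rest on transcript totals, taken from the smallest length that gave whole totals. Whether these totals include reads outside the coding region is not settled.

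The contrast between the start window (-30 to 300) and the stop window (-300 to 30) needs no scaling between libraries. The start window includes reads before the start codon, 14295 of 35296 in trans1. The log2 ratio of the start window minus that of the stop window was 5.27 (5.13 to 5.40) for trans1 over starvation, where 6.68% of 3174 transcripts had a start-to-stop gain of at least 2-fold. It was 4.89 (4.75 to 5.03) for trans2 over starvation, where 8.23% of 3890 had such a gain. ENST00000674920 was the highest transcript in each of these comparisons. For starvation over control the value was -1.64 (-1.82 to -1.46), a shift towards the end of the coding region. Of 4171 transcripts, 8.03% shifted at least 2-fold that way, and ATF4 stood 71st from the lowest.

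The 3 reading frames separate the main coding frame (frame 0, positions divisible by 3 from the start codon) from the others. Around the ATF4 start codon most footprints were in frame 2, a phase other than that of ATF4 itself, in all 4 libraries. From 0 to 79, frame 2 held 61.6% of 19982 reads in trans1 (60.9 to 62.3), 67.0% of 16027 in trans2 (66.3 to 67.8), 73.8% of 734 in starvation (70.5 to 77.0) and 77.5% of 756 in control (74.4 to 80.4). From -30 to -1, the frame 2 share was 55.1% in trans1, 67.6% in trans2, 74.7% in starvation and 80.9% in control. In both stretches the share was lowest in trans1, then trans2, and the intervals of starvation and control overlapped. Without its highest position, the frame 2 share of reads from 0 to 99 was 52.7% in trans1, 56.3% in trans2, 63.8% in starvation and 64.7% in control. With each position that has reads counted alike, frame 2 held 33.3% of positions from 0 to 99 in trans1, 31.9% in trans2, 35.6% in starvation and 36.4% in control. Most of these positions had reads in the trans-RNA libraries, so there the count would be near equal between frames whatever the phasing.

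Such phasing is uncommon. Among transcripts with at least 50 reads from 0 to 79, the median share of frame 0 was 86.6% in trans1, 87.0% in trans2, 88.0% in starvation and 87.1% in control, and that of frame 2 between 4.51% and 5.36%. A frame 2 share at or above that of ATF4 occurred in 9 of 1338 transcripts in trans1, 17 of 1770 in trans2, 14 of 1923 in starvation and 11 of 2199 in control. No mRNA sequence was used here, so the start and end of the overlapping frame could not be read off. From 80 to 106 the frame 2 share was 17.5% in trans1, 16.4% in trans2, 17.6% in starvation and 19.6% in control, far below its share up to 79 in each library. The main frame held 61.0%, 52.0%, 79.4% and 58.7% of reads there, and 65.8%, 72.9%, 81.8% and 68.3% over the last 300 nt, in trans1, trans2, starvation and control. Between them, from 107 to 299, frame 0 held 53.5% in trans1, 79.7% in trans2 and 81.6% in starvation. In control it held 42.5% (34.9 to 50.4) there, beside 40.7% in frame 1.

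**Figure D2:**
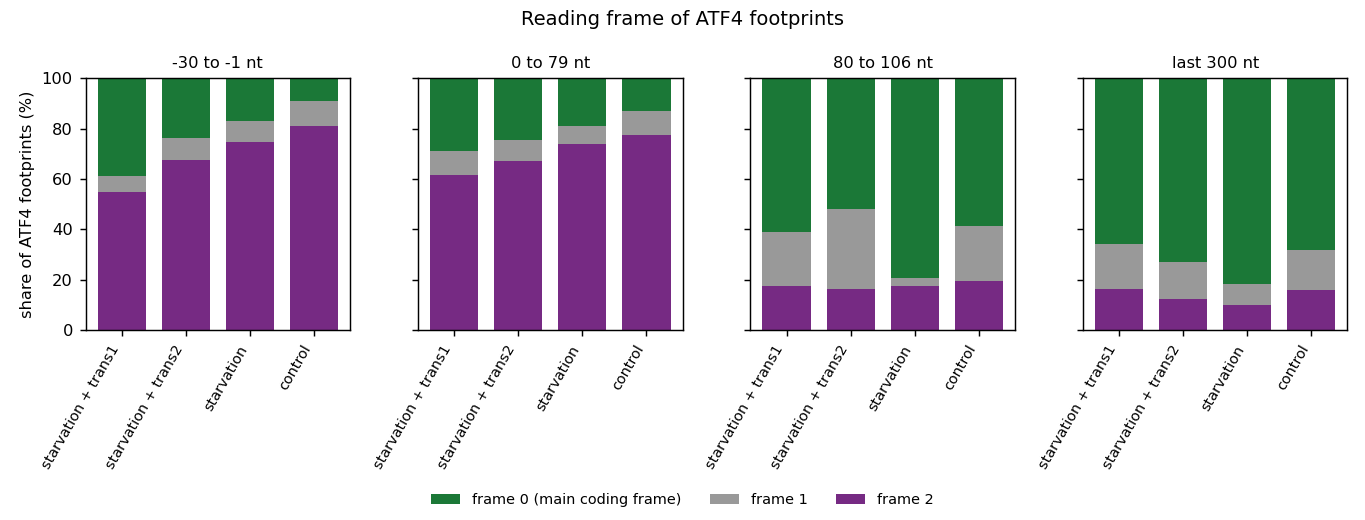
Share of ATF4 footprints (%) in each reading frame, for 4 stretches of ENST00000674920 and 4 libraries; the colours stack to 100%. Frame 2 dominates up to position 79 in every library, with 61.6% in trans1 and 77.5% in control from 0 to 79, and frame 0 holds between 52.0% and 79.4% from 80 to 106 and between 65.8% and 81.8% over the last 300 nt.

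All 3 phases had more footprints in the trans-RNA libraries, and frame 2 had the lowest ratio from 0 to 79. In frame 0 from 0 to 79 there were 5776 reads in trans1, 3935 in trans2, 139 in starvation and 98 in control. The ratios to starvation were 63.6 (53.7 to 75.7) for trans1 and 35.3 (29.8 to 42.1) for trans2. Frame 2 of the same stretch had 12312, 10743, 542 and 586 reads in trans1, trans2, starvation and control, with ratios of 34.7 (31.9 to 37.9) and 24.7 (22.7 to 27.0). Frame 1 had ratios of 54.7 (41.6 to 73.2) for trans1 and 31.7 (24.1 to 42.6) for trans2, which overlap those of frame 0, so a larger factor than in frame 2 was not seen in the coding frame alone. Starvation over control was 1.61 (1.24 to 2.11) in frame 0 and 1.05 (0.933 to 1.18) in frame 2.

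At positions -30 to -1 the difference between frames 0 and 2 was wider in trans1 than in trans2 when all positions were counted. Frame 0 from -30 to -1 held 5562 reads in trans1, 1461 in trans2, 74 in starvation and 33 in control, and frame 2 held 7871, 4141, 325 and 293. The ratios to starvation were 115 (91.4 to 147) for trans1 and 24.6 (19.5 to 31.5) for trans2 in frame 0, and 37.0 (33.1 to 41.5) and 15.9 (14.2 to 17.8) in frame 2. Frame 1 stood at 36.6 (26.2 to 52.6) for trans1, and its interval for trans2 was 12.8 to 26.0. A single position, -3, held 4733 of the 5562 trans1 reads. Without it the frame 0 ratio of trans1 was 70.4 (44.3 to 119), from 829 reads against 18 in starvation. That of trans2 was 38.7 (24.2 to 65.7). Frame 2 of this stretch without position -1, its highest, stood at 34.2 (29.8 to 39.5) for trans1 and 12.5 (10.8 to 14.4) for trans2. Without these positions the difference between frames 0 and 2 was not wider in trans1 than in trans2. From 0 to 79, frame 0 without its highest position stood at 52.1 (43.3 to 63.2) for trans1 and 29.4 (24.3 to 35.8) for trans2. Frame 2 without its own highest position stood at 36.7 (33.1 to 40.8) and 24.6 (22.2 to 27.4), so that the intervals of frames 0 and 2 then overlapped in trans2.

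Frame 2 reads around the start were set against frame 0 reads near the end within each library. No sequence tied frame 2 to the overlapping frame, and reads of a transfected RNA cannot be told apart from footprints here. From -30 to 79, frame 2 held 20183 reads in trans1, 14884 in trans2, 867 in starvation and 879 in control. Frame 0 of the last 300 nt held 643, 613, 1362 and 316 reads in the same order. The ratio of these counts was 31.4 (29.0 to 34.0) in trans1 and 24.3 (22.4 to 26.4) in trans2, against 0.637 (0.584 to 0.694) in starvation, and it was 2.78 (2.44 to 3.17) in control. Starvation without trans-RNA thus had the lowest ratio and the trans-RNA libraries the highest. In frame 0 of the last 300 nt, starvation was at 4.90-fold (4.33 to 5.55) of control, trans1 at 0.722-fold (0.656 to 0.794) and trans2 at 0.561-fold (0.509 to 0.618) of starvation.

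Single positions show how alike the 4 profiles were in shape despite their levels. Position 11, in frame 2, had 3237 reads in trans1, 3270 in trans2, 164 in starvation and 225 in control, and it was the highest position of trans2, starvation and control. Position -1, also in frame 2, had 3168, 2041, 115 and 83 reads in trans1, trans2, starvation and control. Position 65 of the same frame had 1117, 579, 80 and 76 reads, and position 71 had 459, 386, 12 and 20. These peaks recurred in each library, and across the 130 positions from -30 to 99 the reads of trans1 and trans2 had a Spearman correlation of 0.88. Against starvation it was 0.77 for trans1 and 0.74 for trans2, and starvation against control gave 0.72. The Pearson correlation, on the reads themselves, gave another order. It was 0.79 between trans1 and trans2 and 0.91 between starvation and control. Against starvation it was 0.84 for trans1 and 0.89 for trans2, and against control 0.71 for trans1 and 0.90 for trans2. All 4 profiles are of the same transcript ID, and what makes them alike was not tested.

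Other positions set trans1 and trans2 apart. Position -3 had 4733 reads in trans1, 903 in trans2, 56 in starvation and 17 in control, which is 13.5% of the reads from -30 to 106 in trans1 and 3.93% in trans2, against 4.66% in starvation. Position 6, also in frame 0, had 1860 reads in trans1 and 328 in trans2, against 24 in starvation and 5 in control. Trans2 was the high library at position 47 in frame 2, with 1321 reads against 357 in trans1, 9 in starvation and 30 in control. Position 41 of the same frame had 296 reads in trans2 and 17 in trans1, with none in starvation or control.

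Position -12 was the highest of the 30 before the start codon in the average over all transcripts. There ATF4 had 227 reads in trans1, 166 in trans2, none in starvation and 6 in control. The first base of the start codon itself, position 0, had 1450, 1272, 26 and 42 reads in trans1, trans2, starvation and control. Of the positions from -30 to 106, 25 had at least 10 reads in starvation, and all 25 were higher in both trans-RNA libraries. Their median ratio was 39.4 in trans1, with a lowest of 11.8 at position -7 and a highest of 129 at -3. In trans2 the median was 17.0, the lowest 6.11 at -7 and the highest 61.0 at position 0.

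**Figure D3:**
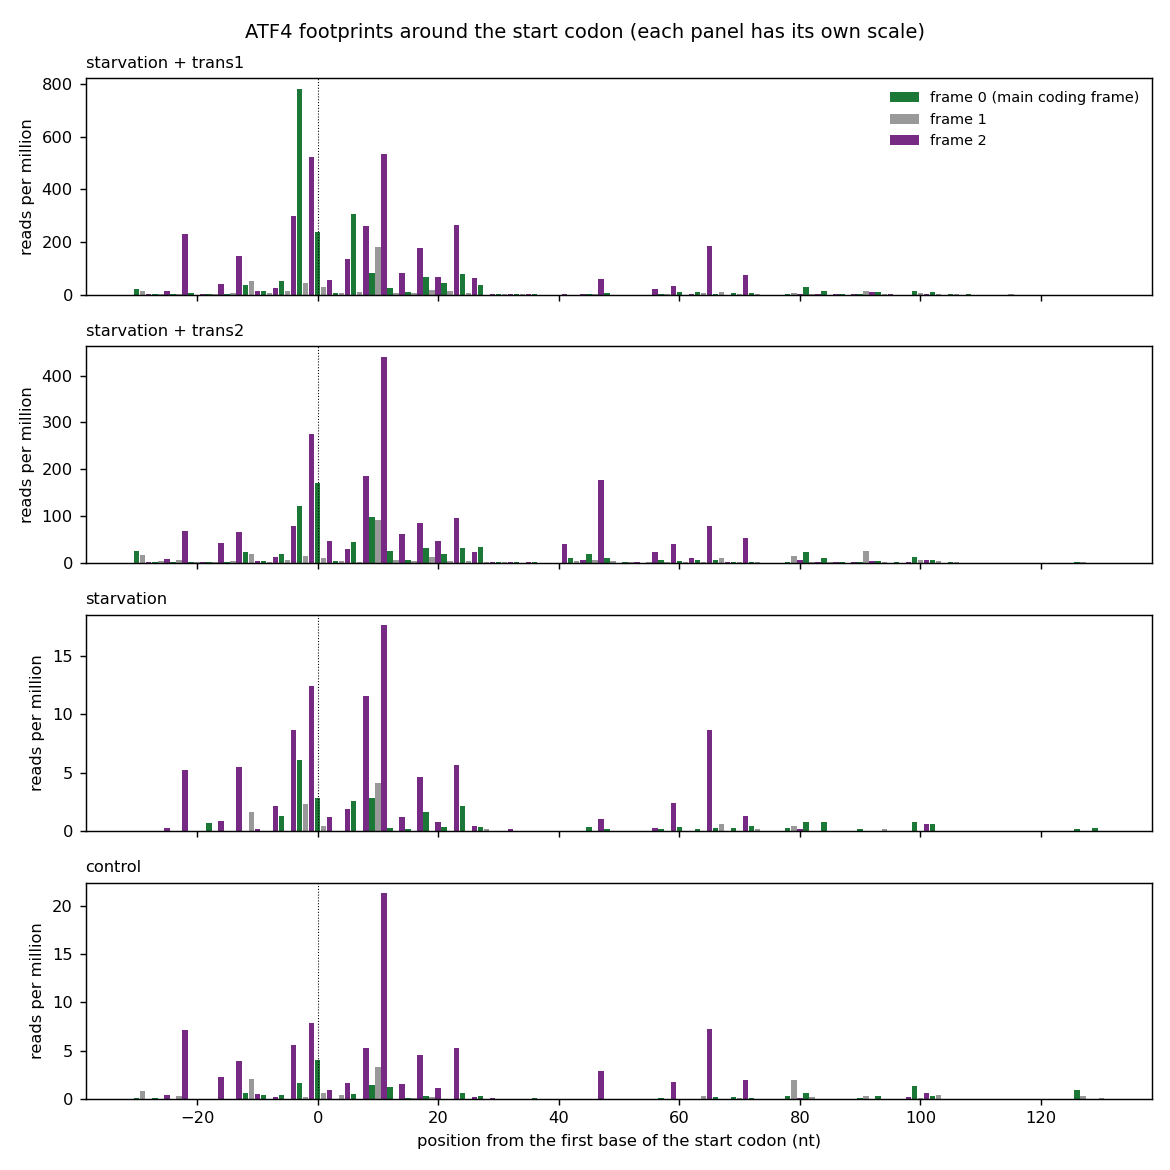
ATF4 footprints (CPM, linear axis with its own scale in each panel) at positions -30 to 130 of ENST00000674920, coloured by reading frame, in trans1, trans2, starvation and control from top to bottom. Position 11 is the highest in trans2, starvation and control and -3 the highest in trans1, and hardly any reads lie beyond position 106 in either trans-RNA library on these scales.

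Near the end of the coding region the reads also gathered at a few frame 0 positions. In stop-aligned positions, -117 had 102 reads in trans1, 31 in trans2, 175 in starvation and 33 in control. Position -246 had 67, 46, 166 and 17 reads in trans1, trans2, starvation and control, and -51 had 57, 55, 162 and 19. Starvation had the most reads at each of the 3. Over these 300 positions the Spearman correlation was 0.65 between trans1 and trans2, 0.66 between trans1 and starvation, 0.76 between trans2 and starvation and 0.64 between starvation and control.

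**Figure D4:**
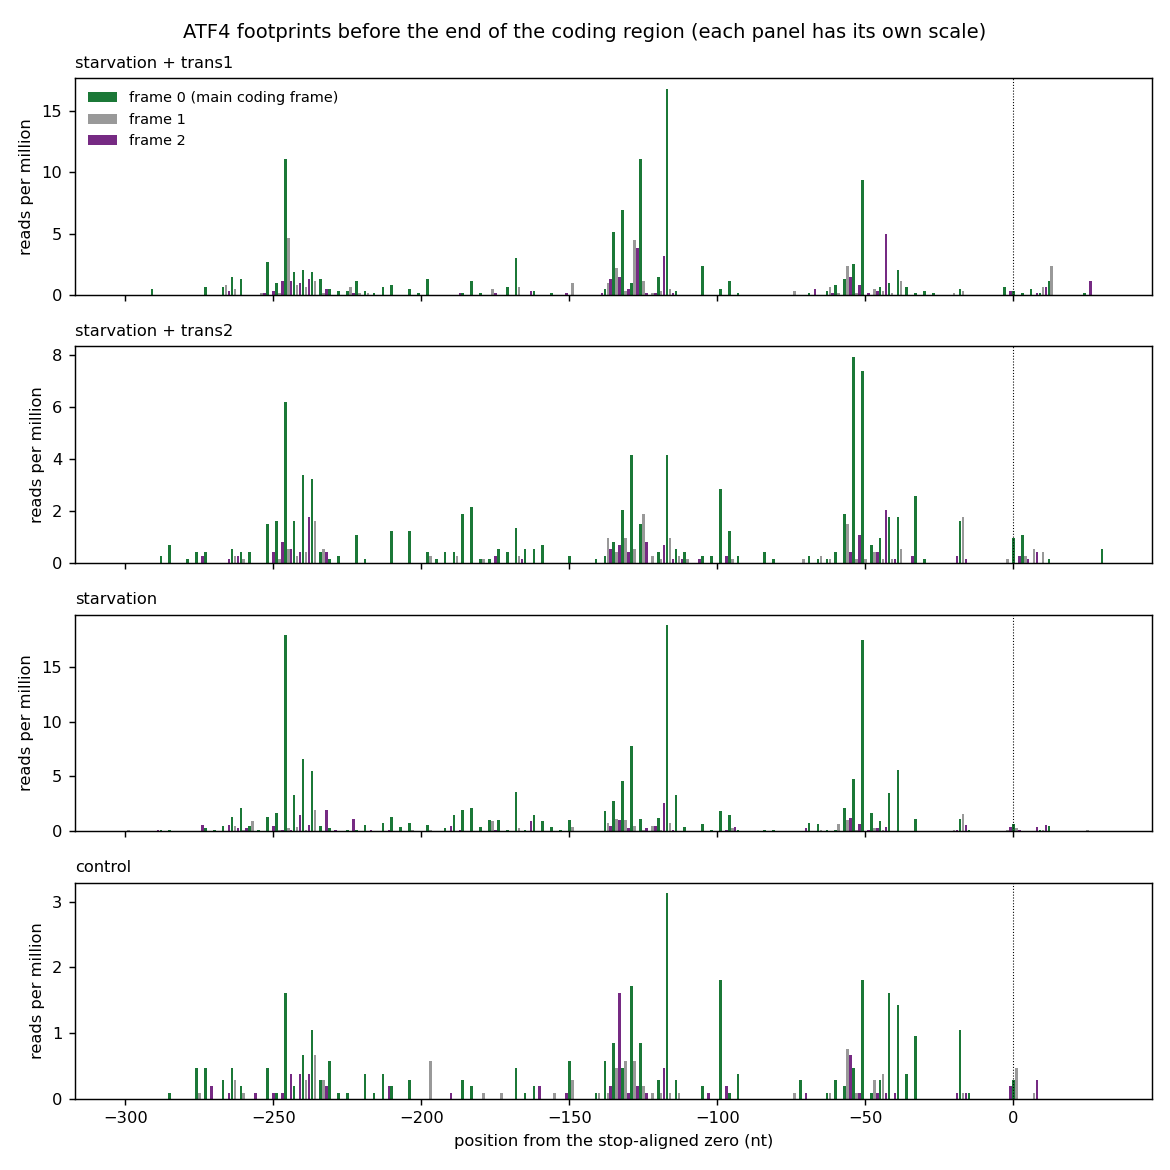
ATF4 footprints (CPM, linear axis with its own scale in each panel) over the last 300 nt before the stop-aligned zero and 30 nt after it, coloured by reading frame, in trans1, trans2, starvation and control from top to bottom. Frame 0 holds 65.8% of the reads before the zero in trans1 and 81.8% in starvation, and the tall positions -246, -117 and -51 occur in all 4 panels.

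The authors' deposited tables give 1 log2 value per frame, with no error or replicate, and the sources used here do not state their scaling. All 5 uoORF entries of the 2 other ATF4 transcripts were high in both trans-RNA tables. In the authors' deposited tables, ENST00000675582_uoORF_3 and ENST00000679776_uoORF_4 both stood at 5.31 for trans1 and 4.35 for trans2 over starvation. These entries have identical values in all 3 tables and are not separate measurements. The authors' deposited tables put ENST00000675582_uoORF_4 at 5.30 and 4.34, ENST00000679776_uoORF_5 at 5.19 and 4.39, and ENST00000679776_uoORF_1 at 4.76 and 4.19, for trans1 and trans2. For starvation over control the same 5 entries lay between -0.07 and 0.10 in the authors' deposited table. Among 1581 uoORF entries, the authors' deposited tables have 0.506% at least 2-fold higher in trans1, 0.696% in trans2 and 1.58% in starvation over control, with medians of -0.46, -0.19 and -0.21. These shares include the entries described here: of the 8 behind the trans1 share, 5 are the ATF4 entries and 3 are on the other IDs without a symbol, and of the 11 in trans2 these make up 5 and 3.

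The uORF entries, frames that end before the coding region, did not move as 1 group. ENST00000675582_uORF_7 stood at 3.59 for trans1 and 3.68 for trans2 over starvation, and at -0.44 for starvation over control, in the authors' deposited tables. ENST00000679776_uORF_2 and ENST00000679776_uORF_3, which carry identical values, stood at -0.99 for trans1, 1.30 for trans2 and -0.27 for starvation over control in the authors' deposited tables. At least 2-fold higher uORF entries made up 0.667% of 6143 in trans1, 1.25% in trans2 and 2.93% in starvation over control in the authors' deposited tables.

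The frames inside the coding region were below starvation in the trans-RNA comparisons and above control in starvation. ENST00000679776_Trunc_0, a shortened ATF4 frame, stood at -0.59 for trans1 and -0.77 for trans2 over starvation in the authors' deposited tables. For starvation over control it was at 1.35, rank 13 of 9417 Trunc entries, of which 0.563% were at least 2-fold higher in the authors' deposited table. ENST00000679776_iORF_4, in another phase, stood at -0.72, -0.23 and 0.63 for trans1 over starvation, trans2 over starvation and starvation over control in the authors' deposited tables. The class medians for trans1 and trans2 were also below 0, at -0.27 and -0.10 for Trunc and -0.49 and -0.36 for iORF. Minus these medians, Trunc_0 stood at -0.32 and -0.67, and iORF_4 at -0.23 for trans1 but 0.13 for trans2. None of the 10 entries is of the full coding region. The order of the deposited values, uoORF far above Trunc with trans-RNA and Trunc above uoORF in starvation over control, is that of the footprints by stretch on ENST00000674920, from the same libraries.

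**Figure D5:**
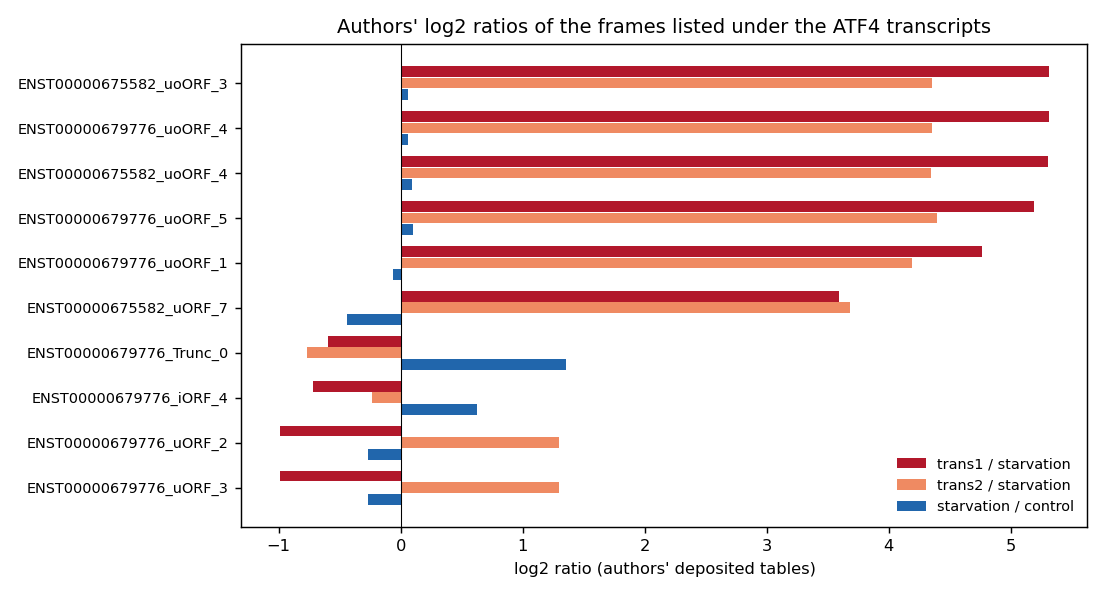
The authors' deposited log2 values for the 10 frames listed under ENST00000675582 and ENST00000679776 (1 bar per comparison, without error since none is deposited). The 5 uoORF entries lie between 4.19 and 5.31 in the trans-RNA comparisons and between -0.07 and 0.10 for starvation over control, while Trunc_0 lies at 1.35 for starvation over control.

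Entries under other IDs had similar values. In the authors' deposited tables, 17 entries were at least 8-fold higher in both trans-RNA comparisons, and 6 of them belong to the ATF4 transcripts. The other 11 fall on 7 IDs without a symbol in these files, and 1 of them has the same values as an ATF4 uoORF in all 3 tables. The RefSeq gene table lists 4 ATF4 pseudogenes. Reads of near-identical copies and of further ATF4 transcripts cannot be told apart in these tables, so the ranks of the ATF4 entries are not over independent frames, and the 3 transcript IDs may not be all of ATF4.

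Few other mRNAs with known regulatory upstream frames could be compared with ATF4. Of 16 listed, 7 could be counted, and none was at least 2-fold higher or lower in any comparison. The shares over all transcripts, 1.25% higher and 1.13% lower in trans1, 1.86% and 0.196% in trans2, and 2.53% and 1.87% in starvation over control, are so low that a count of 0 among so few genes says nothing particular about them, and the same holds for the eIF2 genes and the ATF4 targets. Their median log2 ratio was -0.01 for trans1, -0.12 for trans2 and 0.22 for starvation over control, beside -0.08, 0.04 and -0.003 over all transcripts. The transcription factor CEBPB, whose mRNA also has an upstream frame, had 40.5, 37.3, 40.7 and 23.0 CPM in trans1, trans2, starvation and control. Its value for starvation over control, 0.80, was near the 0.75 of ATF4, while for trans1 and trans2 it was at -0.01 and -0.12.

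EPRS1, the glutamyl-prolyl-tRNA synthetase, was at -0.20 for trans1, -0.03 for trans2 and -0.14 for starvation over control. Its start-minus-stop value for starvation over control was -1.35, past 2-fold in the direction of ATF4 at -1.64, beside 8.03% of all transcripts. It was 1 of the 3 genes of this list with such a value. CEBPA, a factor related to CEBPB, was at 0.26, 0.08 and 0.29 for trans1, trans2 and starvation over control. SLC7A1, an importer of cationic amino acids, was at 0.06, 0.52 and 0.08, and HSPA5, a chaperone of the endoplasmic reticulum, at -0.01, -0.23 and 0.22. UCHL5, a deubiquitinase of the proteasome, was at -0.28, -0.19 and -0.38, and SLC35A4, a member of the nucleotide sugar transporter family, at -0.04, -0.14 and 0.27.

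Of the eIF2 kinases and initiation factors, 6 of 16 were measured, and none was at least 2-fold higher or lower over the whole transcript. Their medians were -0.12, -0.17 and 0.29 for trans1, trans2 and starvation over control. EIF2AK4, the kinase that senses uncharged tRNA, was at -0.37, -0.39 and 0.48. EIF2S2, the beta subunit of eIF2, was at -0.12, -0.21 and 0.57, and EIF2S3, the gamma subunit, at -0.11, -0.002 and -0.08. EIF2D, a factor for non-canonical initiation, was at -0.31, -0.14 and 0.76, and DENR, which acts in reinitiation, at -0.03, -0.26 and 0.10. EIF2AK1, the heme-regulated kinase, was at -0.13, 0.17 and 0.09.

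In start against stop windows, 2 genes of this list passed 2-fold. EIF2AK1 was at 1.09 for trans2 over starvation, the direction of ATF4, beside 8.23% of all transcripts. EIF2D was at 1.42 for starvation over control, opposite to ATF4, beside 5.97% of all transcripts.

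Genes that ATF4 activates were measured for 4 of 20, with none at least 2-fold higher or lower in any comparison, and with medians of -0.29, 0.10 and -0.18 for trans1, trans2 and starvation over control. SESN2, a leucine sensor, had 10.7, 16.6, 10.9 and 16.3 CPM in trans1, trans2, starvation and control. SLC7A5, a transporter of large neutral amino acids, was at 0.01, 0.39 and 0.18 in log2 for trans1, trans2 and starvation over control. ALDH18A1, of proline synthesis, was at -0.67, -0.19 and -0.58, and HERPUD1, of protein degradation at the endoplasmic reticulum, at -0.55, -0.32 and 0.32. These few genes do not represent the lists, since most members have no symbol in the files.

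By their log2 ratios in the 3 comparisons, no transcript came close to ATF4. Among 9192 with at least 10 CPM in 1 library, the nearest was ENST00000266534, without a symbol in the files, at a Euclidean distance of 2.66 log2 units over 3 ratios. The nearest with a symbol was ADCYAP1, a neuropeptide precursor, at 2.72, with 17.2, 4.71, 1.73 and 2.28 CPM in trans1, trans2, starvation and control. Its log2 ratios were 2.74, 1.07 and -0.27, against 4.02, 3.23 and 0.75 for ATF4.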

How the data were processed

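Per the submitters' processing notes, STAR 2.7.10a, Bowtie 1.2.3, cutadapt 2.8 and bcl2fastq 2.20.0.422 were used, with the build GRCm39 named also for the human libraries, so no genome coordinates are given. Each deposited density table gives the signal at every nucleotide from 30 nt before to 300 nt after the start codon, and likewise mirrored at the stop codon, relative to the mean of the transcript. Reads were recovered from these values as whole multiples of 1 step (relative tolerance 0.001), for transcripts with reads at 8 or more positions in 2 or more libraries. The smallest length that gave whole totals for ATF4 was 1059 nt, and a length of 2118 would give the same ratios. Whether totals include reads outside the coding region is not settled. In 627 of 668 short transcripts whose windows overlap, both windows gave identical reads. The authors' fold tables hold log2 values. The deposited peak lists, whose values are counts, were used for gene symbols.

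Ratios have exact conditional binomial (Clopper-Pearson) intervals at 95%. A pseudocount of 1 CPM was added for comparisons over all transcripts, and windows needed 20 reads for start against stop. On simulated trans1 and starvation tables, 1485 of 1485 compared ratios were recovered and 96.4% of lengths. These tables were built by the rule that the recovery reverses, so they cannot show that the deposited values follow it. Of 200 transcripts made 3-fold higher, 187 were at least 2-fold higher. Of the others, 18 differed at least 2-fold in either direction. Members and gene lists were chosen with earlier results of these data known. Named genes are the ATF4 transcripts, the nearest transcripts by the 3 ratios, and the highest and lowest 3 of each list, which over the 3 comparisons are all measured members. Alternatives were another scaling, leaving out the highest position, shifting positions, another threshold and other filters. Python 3.11.15, numpy 2.4.6, pandas 2.3.3 and scipy 1.17.1 were used.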

Additional observations from a re-analysis of the deposited data

Results flagged for a closer look

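The authors' deposited values for ENST00000679776_uORF_2 and ENST00000679776_uORF_3 point in opposite directions in the trans-RNA comparisons, at -0.99 for trans1 over starvation and 1.30 for trans2 over starvation. Both entries carry the same values, and the difference was not tested, since each comparison has 1 library per group and shares the starvation library.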

How the results depend on the processing

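Across 82 alternatives for 29 results no log2 ratio changed sign. The counts and percent shares among these results are positive under any setting, so for them a reversal could not occur. Another scaling, 1 added read, a shift of 12 nt, the stretches to 79 and to 106 (the last chosen after seeing the data) and no filter on low values moved no ATF4 result beyond its interval. Leaving out the highest position gave 5.35 (main 5.49) for the trans1 log2 ratio from -30 to 99 and 5.11 for its start-minus-stop value. It put the frame 2 share from 0 to 99 at 52.7%, 56.3%, 63.8% and 64.7% in trans1, trans2, starvation and control (main 60.1%, 64.8%, 71.6% and 74.7%), and frame 0 of the last 300 nt at 61.8% in trans1 and 79.7% in starvation. With each position counted alike whatever its reads, frame 2 held 33.3%, 31.9%, 35.6% and 36.4%, and frame 0 of the last 300 nt 47.1%, 51.5%, 50.4% and 48.2%. Most positions from 0 to 99 had reads in the trans-RNA libraries, so this count cannot show there what the read shares rest on. At a threshold of 1.5-fold, 628 transcripts were higher and 818 lower in trans1, 883 and 216 in trans2, and 1036 and 1024 in starvation over control. With reads at 20 or more positions the counts were 36 and 45, 81 and 5, and 136 and 115, against 126 and 114, 190 and 20, and 258 and 191 in the main analysis. In trans1 over starvation, higher transcripts outnumbered lower ones in the main analysis, but not at 1.5-fold or with reads at 20 or more positions. Minus the median of their class, the authors' log2 values of ENST00000675582_uoORF_3 were 5.77, 4.54 and 0.26 and those of ENST00000679776_Trunc_0 for the trans-RNA libraries -0.32 and -0.67. No paired analysis was possible because each group has 1 library, and for the same reason no replicate could be left out. Depth limits the stretches with fewer than 50 reads, such as 80 to 106 in starvation and control.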
